A study of Mus musculus with 23 samples.

Results

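The 52 genes described here build and handle the sugar chains that are put on proteins in the endoplasmic reticulum (ER), and the glycosylphosphatidylinositol (GPI) anchors that tie proteins to the cell membrane. They were taken by gene symbol alone, as the genes of the hexosamine pathway, the asparagine-linked (N-linked) glycan pathway and the GPI anchor pathway, out of 19938 genes measured on 23 arrays. The receptor gene Pigr, whose symbol only resembles those of the GPI genes, was left out. For each gene the probe set with the highest mean over the arrays was used, and 2 of the 52 genes had more than 1.

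Macrophages were grown with M-CSF from the bone marrow of C57BL/6 mice, all wild type, and were treated after M-CSF had been removed. Stearic acid (SA), a saturated fatty acid, was given at 250 µM for 5 h or 20 h (n = 4 arrays each). Oleic acid (OA), which is as long and has a carbon-carbon double bond where SA has none, was given at 250 µM for 5 h or 20 h (n = 4 each). Lipopolysaccharide (LPS), which bacteria carry and TLR4 senses, was used at 1 ng/mL over 5 h (n = 4), and bovine serum albumin (BSA) at 125 µM for 5 h served as vehicle (n = 3). Both fatty acids were carried on BSA, which the SA, OA and vehicle cells therefore share and the LPS cells are not labelled as having. For LPS and vehicle the series text has 4 h in place of the 5 h of the sample labels. Vehicle was measured here at 5 h only, so exposure and culture time cannot be told apart when 20 h is set against 5 h. Samples of a group are wells per the labels and biological replicates per the series text. Whether the spread behind the p-values is biological or technical is therefore not settled.

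N-glycosylation starts in the hexosamine pathway, which makes the activated sugar UDP-GlcNAc from fructose 6-phosphate. The ALG enzymes then assemble a glycan on the membrane lipid dolichol, first on the cytosolic and then on the lumenal face of the ER, and oligosaccharyltransferase moves it to an asparagine of the growing protein. Glucosidases trim the glycan and UGGT adds glucose back to misfolded proteins, which keeps them in the calnexin cycle. The GPI anchor is built in the same membrane by the PIG proteins, draws on the same UDP-GlcNAc and dolichol-phosphate mannose, and is attached by the GPI transamidase. In macrophages the LPS co-receptor CD14 is GPI-anchored. Genes of the N-glycan pathway are known targets of the unfolded protein response, the programme by which cells answer unfolded protein in the ER.

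The files give log2 expression per probe set, on which 1 unit is a 2-fold change. Array medians lay between 3.98 and 4.12. Levels of different genes cannot be set against each other on this scale, because probe sets differ in brightness. The number of arrays limits the precision. For these genes the median spread within groups was 0.14 (SD), against 0.17 over all genes, and it ranged from 0.07 for Stt3a to 0.30 for Pgm3. Alg6, Piga and Uggt2 had group means below the highest array median in every group and are not shown to lie above background. On replicate 2 of 20 h SA genes lay further from their group means than on the rest of that group, with an SD over genes of 0.215 where the remaining arrays had 0.153 to 0.161, so the main counts are also given without it. All 10 macrophage markers examined lay above the median of the tested genes in each group. Array means of that list ran from 8.41 to 8.62 with 20 h SA and from 9.62 to 9.67 with 20 h OA, and 9 of the 10 fell with SA. Neutrophil markers had array means of 6.56 to 6.85 with 20 h SA and 6.64 to 6.82 with 20 h OA. Between these groups none of the 9 passed the test (limma, none with an unadjusted p under 0.05). From 5 h to 20 h 5 of the 9 rose with SA and 2 with OA, where 6.23% and 2.58% of all genes rose. With LPS against vehicle 2 rose, where 9.22% of all genes did. In each group 6 of the 9 lay above the median of the tested genes. Lists of lymphocyte, dendritic, erythroid, mast and stromal cell markers had array means of 2.31 to 4.22 over all groups. These lay below the median of the tested genes, 4.25. Single markers did lie above the median of the tested genes: 1 lymphocyte and 1 dendritic marker in each group, and 2 stromal markers, or 3 with LPS. The part of these marker levels in the results below was not tested.

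The sequences around the start sites are shown for 3 of the genes that rose with SA against OA at 20 h. RefSeq windows of 300 bases, from 250 before the start to 50 from the start on (GRCm38.p6), were at hand for 42 of the 52 genes and for 10 of the 14 that rose with SA against OA at 20 h. The ER stress element (ERSE), CCAAT followed after 9 bases by CCACG, the binding site of the stress factor ATF6 with NF-Y, was searched, like the other motifs, on both strands. It was found in 1 of the 42 genes, Alg12, and in 0.137% of 27025 genes with such windows. TGACGTG, the core of the unfolded protein response element bound by XBP1, was found in 4 of the 42 genes and in 2.22% of all genes. Uap1 was the only risen gene among the 4, the others being Dpm2, Mogs and Pigp. The shorter CCACG, which is also the end of the ERSE, was found in 9 of the 10 risen genes, in 24 of the 42 genes and in 35.5% of all genes. ERSE-II, ATTGG followed after 1 base by CCACG, and the ATF4 site TTGCATCA were in none of the 42, and in 0.0444% and 1.03% of all genes. A match is a description of these letters and does not show binding. The Gfpt1 window is shown for its 2 CCACG matches, since Gfpt1 rose most, with Uap1 for TGACGTG and Alg12 for the ERSE. The named match is in capitals, with the second Gfpt1 match reading CGTGG because it lies on the other strand, and each window reads 5′ to 3′ along the gene.
Gfpt1 chr6:87042596-87042895 (+): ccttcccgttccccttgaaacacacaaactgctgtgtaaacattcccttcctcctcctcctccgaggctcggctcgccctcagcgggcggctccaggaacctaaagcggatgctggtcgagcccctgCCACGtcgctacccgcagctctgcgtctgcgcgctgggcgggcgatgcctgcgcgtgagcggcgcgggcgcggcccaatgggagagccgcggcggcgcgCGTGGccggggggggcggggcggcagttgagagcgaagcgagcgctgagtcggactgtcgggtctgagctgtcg
Uap1 chr1:170174915-170175214 (-): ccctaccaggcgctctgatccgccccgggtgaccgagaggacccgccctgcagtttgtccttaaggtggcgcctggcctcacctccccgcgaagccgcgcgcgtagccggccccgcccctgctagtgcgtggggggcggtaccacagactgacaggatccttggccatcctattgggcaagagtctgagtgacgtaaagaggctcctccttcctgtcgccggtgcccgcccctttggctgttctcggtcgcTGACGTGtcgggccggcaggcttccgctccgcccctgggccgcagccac
Alg12 chr15:88819269-88819568 (-): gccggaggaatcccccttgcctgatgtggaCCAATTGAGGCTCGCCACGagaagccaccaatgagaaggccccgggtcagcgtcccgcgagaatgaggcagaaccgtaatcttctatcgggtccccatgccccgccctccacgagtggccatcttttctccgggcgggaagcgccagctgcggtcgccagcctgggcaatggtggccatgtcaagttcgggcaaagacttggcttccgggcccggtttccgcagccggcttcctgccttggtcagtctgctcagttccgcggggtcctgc
The ERSE of Alg12 covered positions -220 to -202 from the start site, and TGACGTG of Uap1 covered bases 2 to 8 from the start on.

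SA was first compared with OA at 20 h, the comparison of a saturated with a monounsaturated acid after long exposure. All 4 genes of the hexosamine pathway and 6 of 8 genes of oligosaccharyltransferase rose, as did 4 genes of glycan assembly, while none of the 21 GPI genes rose and 4 fell. Of the 52 genes 14 rose and 5 fell (limma, adjusted p under 0.05 over all genes). That is 26.9% and 9.62%, where 7.72% and 8.95% of all 19938 genes rose and fell and 16.7% changed in either direction. The median log2 change was 0.03 over the 52 genes and 0.03 over all genes. Of the 31 genes of the hexosamine and N-glycan pathways 14 rose and 1 fell, with a median of 0.17, and the GPI genes had a median of -0.02. Whether the pathways differ from each other was not tested. Without replicate 2 of 20 h SA 13 rose and 4 fell, with a median of 0.08. In bulk RNA a change in the share of cells that express a gene and a change per cell cannot be told apart.

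**Figure D1:**
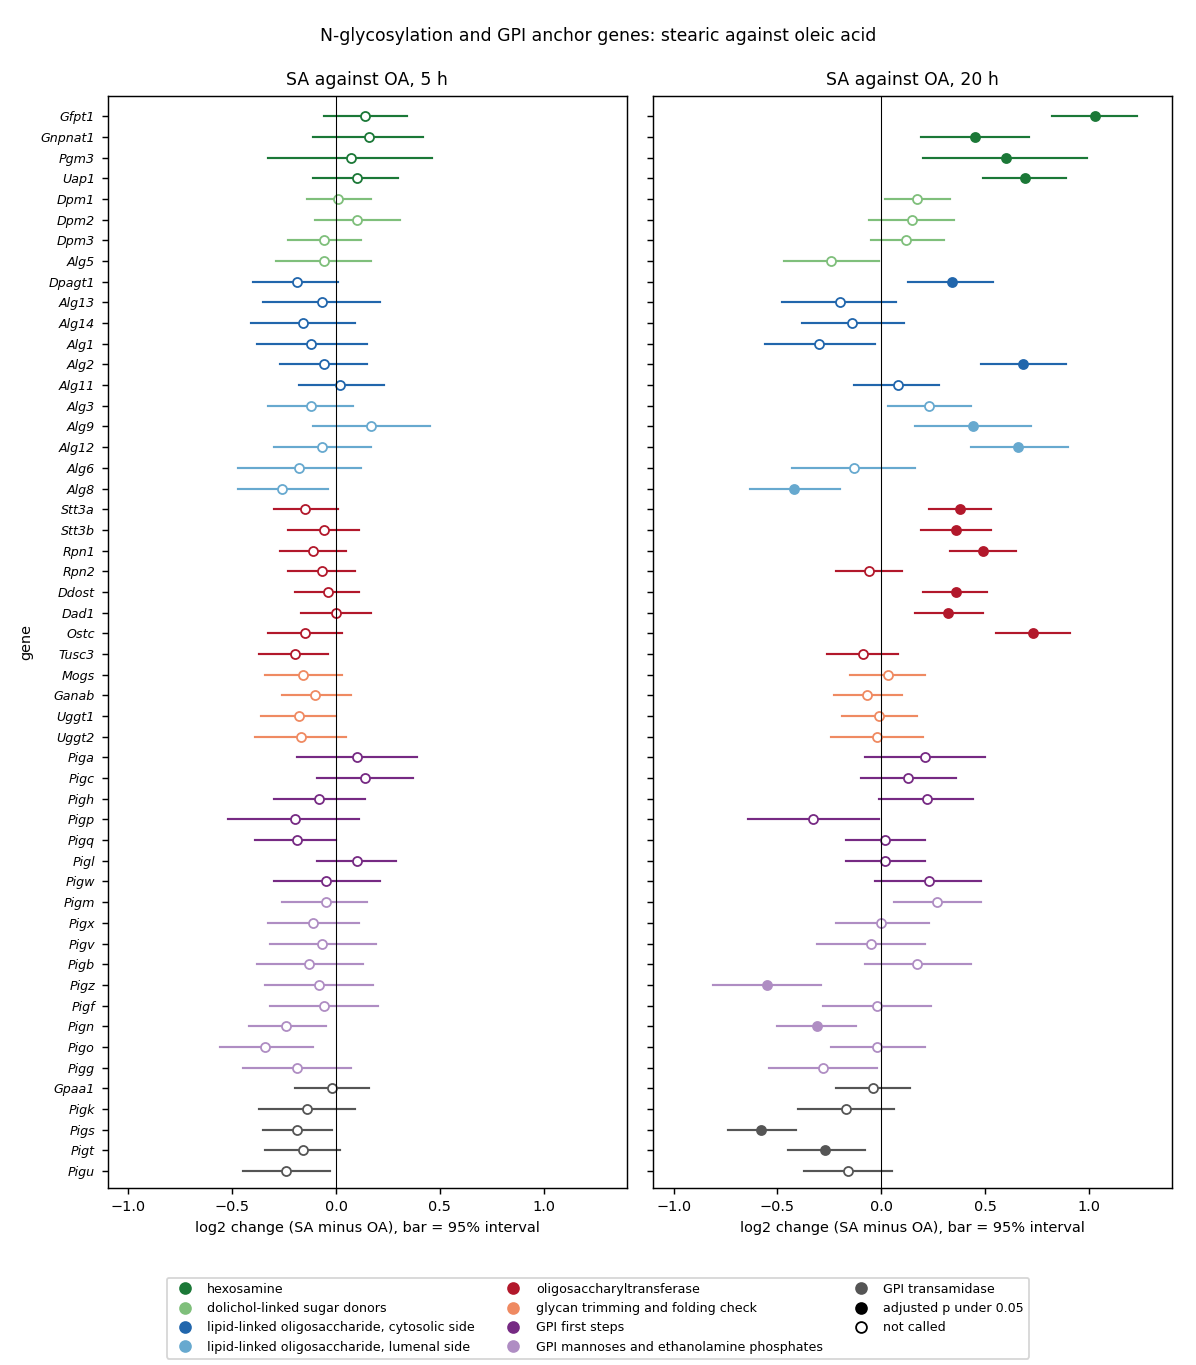
Log2 change of SA minus OA at 5 h (left) and 20 h (right) for each of the 52 genes, coloured by role, with 95% intervals as bars and filled points for adjusted p under 0.05. No point is filled at 5 h. At 20 h 14 are filled on the right of 0, all of hexosamine and N-glycan genes, and 5 on the left.

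The hexosamine pathway held the largest rise. Gfpt1 (probe set 10539773) encodes the amidotransferase that commits fructose 6-phosphate to the pathway and limits its rate. Its level was 7.53, 7.31, 7.59 and 7.42 on the 20 h SA arrays and 6.44, 6.60, 6.37 and 6.34 on the 20 h OA arrays. Every SA array lay above every OA array, a 2.04-fold difference with a log2 change of 1.03 ± 0.10 (SE, limma adjusted p = 1.41e-08). Uap1 (probe set 10359948) encodes the last enzyme, which makes UDP-GlcNAc. It stood at 5.88, 6.01, 5.96 and 6.05 with SA and 5.13, 5.36, 5.39 and 5.26 with OA, also without overlap, and changed by 0.69 ± 0.10 (SE, limma adjusted p = 8.58e-06). The remaining genes act between these, the acetyltransferase Gnpnat1 and the phosphomutase Pgm3. Gnpnat1 rose by 0.45 ± 0.13 (SE, limma adjusted p = 0.0138), at 6.08 to 6.47 on the SA arrays and 5.77 to 6.00 on the OA arrays, a call lost without replicate 3 of SA, at 0.40. Pgm3 rose by 0.60 ± 0.19 (SE, limma adjusted p = 0.0308), at 5.41 to 5.59 with SA and 4.40 to 5.24 with OA. Its OA arrays were the more scattered, with the lowest at 4.40 and the next at 4.87, and its call was lost when replicate 1, 3 or 4 of SA or replicate 2 or 3 of OA was left out, at 0.43 to 0.60.

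Assembly of the lipid-linked glycan was uneven. Dpagt1 (probe set 10584700) encodes the enzyme of the first sugar transfer, the target of tunicamycin. It stood at 8.33, 8.37, 8.78 and 8.50 with 20 h SA and at 8.10, 8.29, 8.12 and 8.12 with 20 h OA. The groups did not overlap, but the gap was narrow, and the log2 change was 0.34 ± 0.10 (SE, limma adjusted p = 0.0179). The call was lost without replicate 3 of SA, at 0.24, or replicate 1 of OA, at 0.32. Alg2 (probe set 10512847), a mannosyltransferase of the cytosolic face, had 6.59, 6.50, 6.46 and 6.50 with SA and 6.01, 5.75, 5.78 and 5.79 with OA. Its rise of 0.68 ± 0.10 (SE, limma adjusted p = 1.49e-05) was the largest among the assembly genes. The other 4 cytosolic genes, Alg1, Alg11, Alg13 and Alg14, did not pass, at -0.30 to 0.08.

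On the lumenal face the mannosyltransferases Alg12 and Alg9 rose and the glucosyltransferase Alg8 fell. Alg12 (probe set 10431300), whose window above holds the ERSE, had 6.21, 5.82, 6.09 and 6.06 with 20 h SA and 5.65, 5.22, 5.48 and 5.18 with 20 h OA, a change of 0.66 ± 0.11 (SE, limma adjusted p = 1.10e-04). Alg9 had 6.82, 6.67, 6.28 and 6.44 with SA and 6.23, 5.73, 6.24 and 6.25 with OA, a change of 0.44 ± 0.13 (SE, limma adjusted p = 0.0233). The closest arrays of the 2 groups were 6.28 with SA and 6.25 with OA, so Alg9 was barely separated. Its call was lost without replicate 1 or 2 of SA or replicate 2 of OA, at 0.31 to 0.40. Alg8 had 6.93, 6.80, 6.69 and 6.86 with SA and 7.36, 7.24, 7.21 and 7.12 with OA, and changed by -0.42 ± 0.10 (SE, limma adjusted p = 0.00550). Of the 31 hexosamine and N-glycan genes counted above, Alg8 alone fell. Alg3, a further mannosyltransferase, and Alg6, a glucosyltransferase, did not pass, at 0.23 and -0.13. The donor genes did not pass either: Dpm1, Dpm2 and Dpm3, which make dolichol-phosphate mannose for both pathways, had 0.17, 0.15 and 0.12, and Alg5, which makes dolichol-phosphate glucose, -0.24.

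Oligosaccharyltransferase was the role with the most risen genes. Ostc (probe set 10502191), a subunit of the complex form that works beside the translocon, had 9.72, 9.65, 9.73 and 9.77 with 20 h SA and 9.06, 8.86, 9.02 and 9.0 with 20 h OA. The arrays of a group lay close together and the groups far apart, with a change of 0.73 ± 0.09 (SE, limma adjusted p = 4.80e-07). Rpn1 (probe set 10539861), which encodes ribophorin I, had 8.93, 8.79, 9.0 and 8.89 with SA and 8.46, 8.37, 8.39 and 8.43 with OA, a change of 0.49 ± 0.08 (SE, limma adjusted p = 4.56e-05). Its partner Rpn2 did not pass, at -0.06 (95% interval -0.22 to 0.10), with arrays of 8.62 to 8.84 with SA and 8.69 to 8.86 with OA. The complex has alternative catalytic subunits, STT3A, which glycosylates proteins as they enter the ER, and STT3B, which can act later. Stt3a (probe set 10592217) changed by 0.38 ± 0.07 (SE, limma adjusted p = 4.81e-04) and Stt3b by 0.36 ± 0.08 (SE, limma adjusted p = 0.00214). The shared subunits Ddost and Dad1 rose by 0.36 and 0.32. Tusc3, an oxidoreductase subunit of the STT3B form, did not pass, at -0.09 (95% interval -0.26 to 0.08).

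Glycan trimming and the folding check showed no called gene. Among the 4, the glucosidases Mogs and Ganab had 0.03 and -0.07, and the folding sensors Uggt1 and Uggt2 -0.01 and -0.02. For Uggt1 the 95% interval was -0.19 to 0.17, with arrays of 6.57 to 6.75 with 20 h SA and 6.62 to 6.71 with 20 h OA. None of these 4 members had an unadjusted p under 0.05 in limma.

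**Figure D2:**
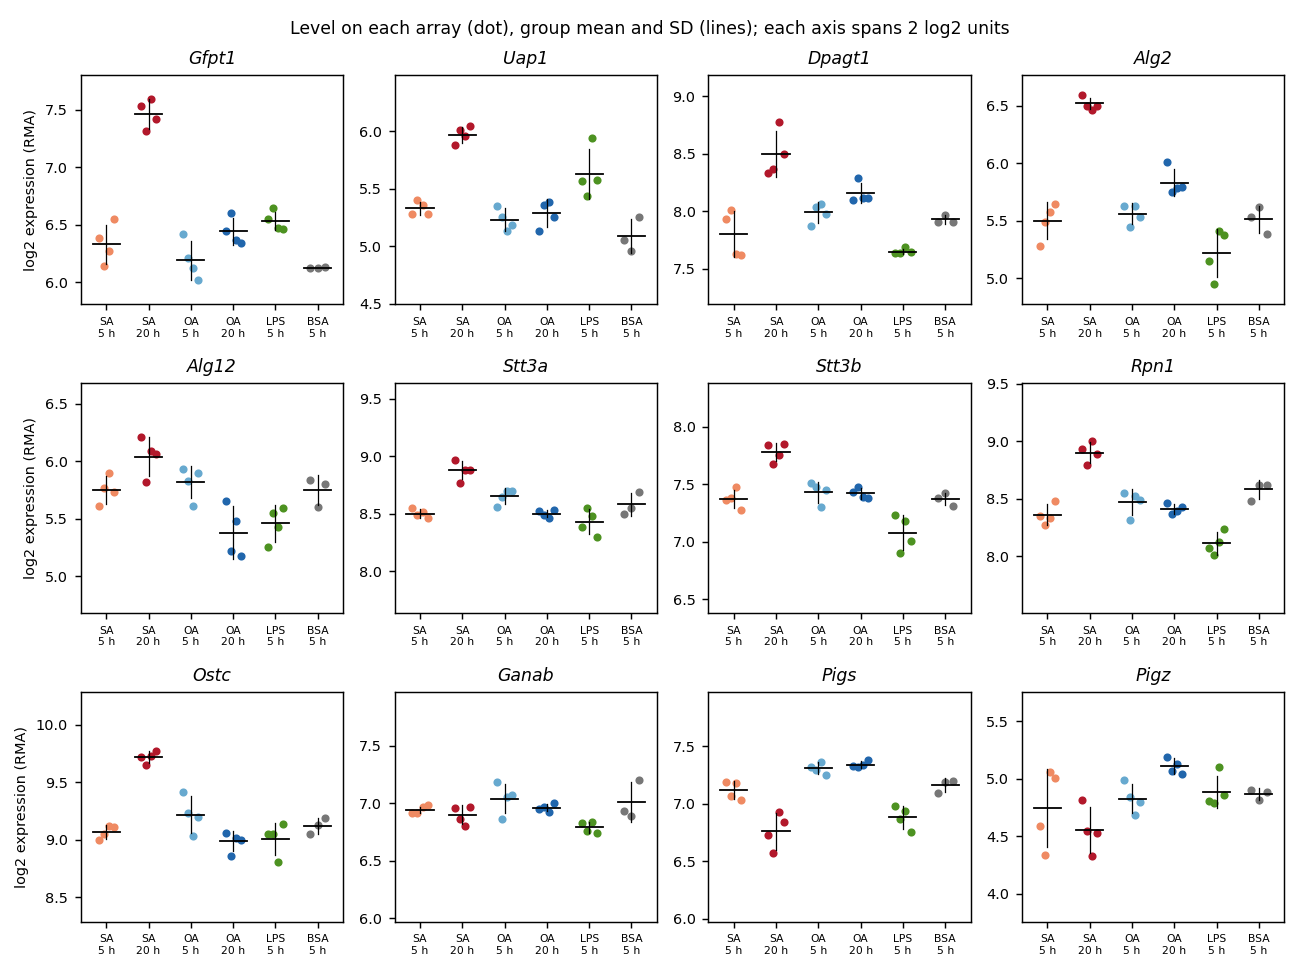
Log2 expression of 12 of the 52 genes on each array (dots) in the 6 groups, with group mean (horizontal line) and SD (vertical line). The 20 h SA arrays lie above the other arrays for Gfpt1, Dpagt1, Alg2, Stt3a, Stt3b, Rpn1 and Ostc, the SA and OA arrays of 20 h overlap for Ganab, and Pigs has its lowest group mean with 20 h SA.

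Among the 21 GPI anchor genes Pigs, Pigz, Pign and Pigt fell at 20 h. Pigs (probe set 10379163), a subunit of the transamidase that joins the anchor to the protein, had 6.73, 6.57, 6.93 and 6.84 with SA and 7.33, 7.32, 7.34 and 7.38 with OA. Every SA array was lower, and the change was -0.58 ± 0.08 (SE, limma adjusted p = 6.64e-06). Pigz (probe set 10434993), which adds an optional further mannose to the anchor, had 4.82, 4.55, 4.33 and 4.53 with SA and 5.19, 5.07, 5.13 and 5.04 with OA. It changed by -0.55 ± 0.13 (SE, limma adjusted p = 0.00266). Pign, an ethanolamine phosphate transferase, and Pigt, another transamidase subunit, changed by -0.31 and -0.27. The call of Pign was lost without replicate 3 of SA or 2 of OA, at -0.27 to -0.24, and that of Pigt without any 1 of 5 arrays, replicates 2, 3 and 4 of SA and 1 and 3 of OA, at -0.28 to -0.23. The remaining transamidase genes Gpaa1, Pigk and Pigu did not pass, and Pigk, the catalytic subunit, stood at -0.17 (95% interval -0.40 to 0.06). None of the 7 genes of the first steps passed, with changes of -0.33 to 0.23. Piga, the catalytic subunit of the first step, had 0.21 (95% interval -0.08 to 0.50) at levels near background.

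At 5 h the acids were not separated by the test for any of the 52 genes. None passed in limma, the only tool run, and 7 of the 52 (13.5%) had an unadjusted p under 0.05, as had 16.6% of all genes. After adjustment 5.67% of all genes were called, 3.3% as risen and 2.37% as fallen. Changes ran from -0.34 for Pigo, an ethanolamine phosphate transferase of the GPI pathway, to 0.17 for Alg9, with a median of -0.08 against 0.01 over all genes. For Gfpt1 the difference was 0.14 (95% interval -0.06 to 0.34), for Rpn1 -0.11 (95% interval -0.27 to 0.05) and for Ostc -0.15 (95% interval -0.33 to 0.03). The 5 h intervals of Gfpt1, Rpn1 and Ostc thus do not reach the 20 h estimates of 1.03, 0.49 and 0.73. Against vehicle at 5 h no gene passed with SA or with OA. With SA 3 of the 52 (5.77%) had an unadjusted p under 0.05, as had 13.5% of all genes, and after adjustment 3.33% of all genes were called, 1.94% as risen and 1.39% as fallen. With OA none of the 52 had one, where 5.66% of all genes did, and after adjustment 0.0702% of all genes were called, 0.0201% as risen and 0.0502% as fallen. Without replicate 2 of 5 h SA, 1 of the 52 genes fell against OA at 5 h.

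The test of whether the SA-OA difference itself changed between the times passed for 11 of the 52 genes. SA minus OA moved upward from 5 h to 20 h for 10 of them and downward for 1, which is 19.2% and 1.92%, against 1.58% and 3.4% of all genes (4.98% in either direction). The median was 0.13 over the 52 genes and 0.01 over all genes. The largest changes of the difference were 0.88 ± 0.12 for Ostc (SE, limma adjusted p = 2.52e-05), 0.88 ± 0.14 for Gfpt1 (SE, limma adjusted p = 1.16e-04) and 0.74 ± 0.14 for Alg2 (SE, limma adjusted p = 0.00133). Alg12 followed at 0.73 ± 0.16 and Rpn1 at 0.60 ± 0.11 (SE). Uap1 had 0.59, Stt3a and Dpagt1 0.53 each, Stt3b 0.42 and Ddost 0.40. Pigs was the gene that went the other way, at -0.39 ± 0.11 (SE, limma adjusted p = 0.0482). Leaving out single arrays ended the call for Pigs in 13 of 16 cases, for Stt3b in 10, and for Dpagt1 and Ddost in 6 each. Without replicate 2 of 5 h OA the count was 7, and without replicate 2 of 20 h SA it was 10, with no gene fallen.

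Which acid moved was seen by setting 20 h against 5 h of each acid, which combines exposure and culture time. With SA 13 of the 52 genes rose and 1 fell (25% and 1.92%, against 6.23% and 6.57% of all genes and 12.8% in either direction). Gfpt1 changed by 1.13 ± 0.10 and Alg2 by 1.02 ± 0.10 (SE). Dpagt1 had 0.70, Ostc 0.65, Uap1 0.64 and Gnpnat1 0.60. The 3 GPI genes among the risen were Pigb, Pigm and Pigq, at 0.39, 0.31 and 0.29, and Pigs was the gene that fell, at -0.35. The calls of Pigb and Pigq were lost without any of 5 arrays and that of Pigm without any of 6 of the 8, at 0.26 to 0.41. With OA none rose and 1 fell, where 2.58% of all genes rose and 1.8% fell (4.38% in either direction). That gene was Alg12, whose OA arrays stood at 5.65, 5.22, 5.48 and 5.18 at 20 h and at 5.93, 5.83, 5.61 and 5.90 at 5 h, overlapping by 1 array, a change of -0.44 ± 0.11 (SE, limma adjusted p = 0.0256). The call was lost without replicate 2 or 4 of 20 h OA or replicate 1, 2 or 4 of 5 h OA, at -0.43 to -0.37. With SA Alg12 did not pass between the times, at 0.29 (95% interval 0.06 to 0.53, limma adjusted p = 0.104). Neither acid had a call between the times for Pgm3, Alg8, Alg9, Dad1, Pigz, Pign or Pigt, so which acid moved is not settled there. Mean Dad1 was 9.67 at 5 h and 9.79 at 20 h with SA, and 9.67 and 9.47 with OA. These comparisons share arrays with those of SA against OA. With the arrays of the compared groups alone, 9 rose and none fell with SA, and none was called with OA.

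**Figure D3:**
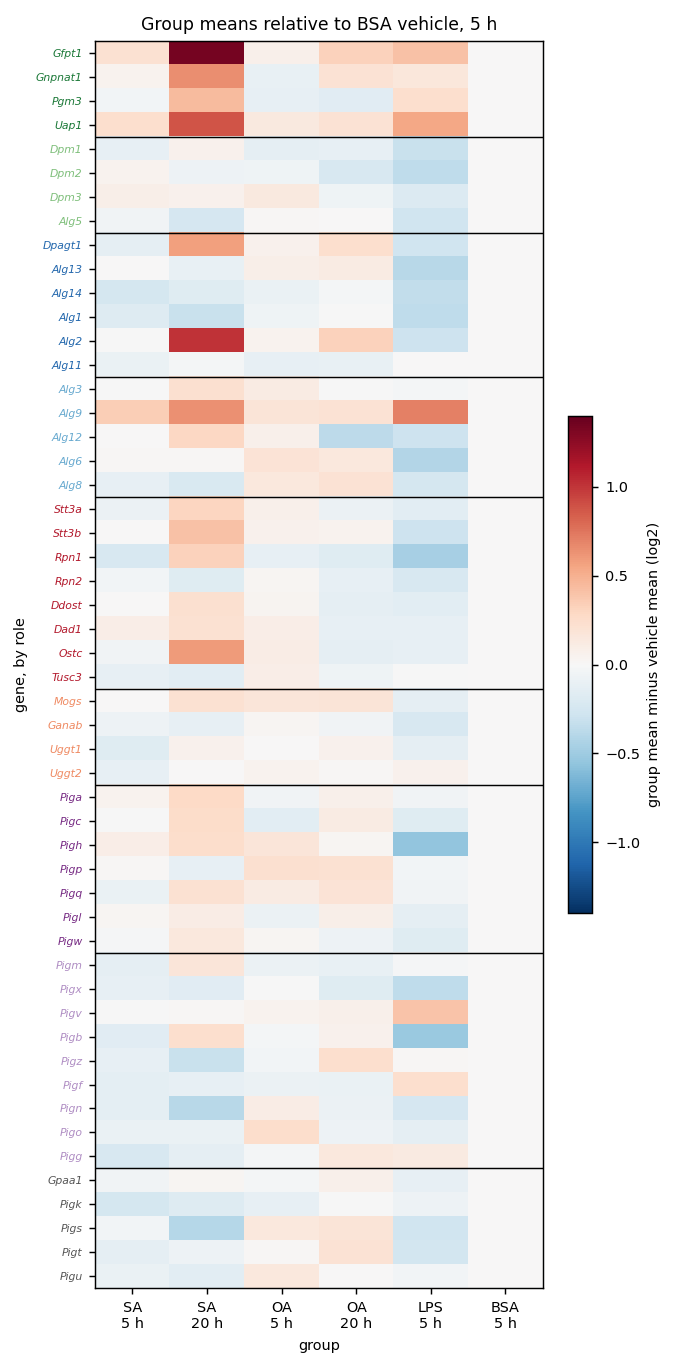
Group mean of each of the 52 genes minus its mean in vehicle (log2), by role, for the 6 groups. The 20 h SA column is darkest for Gfpt1, Alg2 and Uap1. The LPS column is blue for most ALG genes and red for Gfpt1, Uap1, Alg9 and Pigv.

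The 20 h SA arrays were set against all 19 other arrays for each gene. For 8 genes, Gfpt1, Gnpnat1, Dpagt1, Alg2, Stt3a, Stt3b, Rpn1 and Ostc, every 20 h SA array lay above all the others, as for 2.76% of all genes. For none of the 52 did every 20 h SA array lie below all the others, against 2.63% of all genes. Gfpt1 reached 7.31 at least with 20 h SA and 6.64 at most elsewhere, on an LPS array. For Uap1 the lowest 20 h SA array, at 5.88, lay below the highest LPS array, at 5.94.

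LPS, the inflammatory stimulus, was set against vehicle at 5 h. The comparison of SA with OA at 20 h did not use these arrays. Since the LPS cells are not labelled as having BSA, LPS and the lack of BSA cannot be told apart here. Of the 52 genes 4 rose and 9 fell (7.69% and 17.3%, against 9.22% and 13.2% of all genes and 22.4% in either direction), so the share called was near the background. The median was -0.15 over the 52 genes and -0.02 over all genes. The number of falls depended on the processing: with each array centred on its median 4 rose and 4 fell, with quantile normalisation 4 rose and 16 fell, and with array quality weights 4 rose and 17 fell. Without replicate 2 of the vehicle 4 rose and 4 fell.

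Of the 4 hexosamine genes Gfpt1 and Uap1 rose with LPS, while Gnpnat1 and Pgm3 did not pass, at 0.15 and 0.23. Gfpt1 had 6.55, 6.64, 6.47 and 6.46 with LPS and 6.12, 6.12 and 6.13 with vehicle, a change of 0.41 ± 0.11 (SE, limma adjusted p = 0.00536). Uap1 had 5.57, 5.44, 5.94 and 5.58 with LPS and 5.06, 4.96 and 5.26 with vehicle, a change of 0.54 ± 0.11 (SE, limma adjusted p = 3.56e-04). In both genes every LPS array lay above every vehicle array. Alg9 changed most, by 0.70 ± 0.15 (SE, limma adjusted p = 7.27e-04), at 6.74, 6.63, 6.55 and 6.50 with LPS and 6.00, 5.75 and 5.98 with vehicle. Pigv, a mannosyltransferase of the GPI pathway, rose by 0.40. Pigh, a subunit of the enzyme of the first GPI step, changed by -0.55 ± 0.12 (SE, limma adjusted p = 7.00e-04) and Pigb, a mannosyltransferase, by -0.52 ± 0.13 (SE, limma adjusted p = 0.00541). Dpm1, Dpm2, Stt3b, Pigx, Pigs and Pigt fell by 0.26 to 0.36 on the log2 scale. Of the 13 called genes Gfpt1, Uap1, Alg9, Dpm1, Rpn1 and Pigh, 6 in all, passed under each alternative tried, and the groups overlapped for Pigt. The call of Pigb was lost without replicate 1 of the vehicle, at -0.37, and that of Pigv without replicate 3 of the vehicle, at 0.22, or replicate 2 or 3 of LPS.

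Rpn1 moved in opposite directions in the 2 settings. It had 8.07, 8.01, 8.12 and 8.24 with LPS and 8.48, 8.62 and 8.62 with vehicle, a change of -0.46 ± 0.08 (SE, limma adjusted p = 1.62e-04), against the rise of 0.49 with SA over OA at 20 h. Stt3b was the other such gene, at -0.29 with LPS, a call that was lost with centred arrays, with the arrays of these groups alone, and without replicate 2 of LPS or replicate 1 or 2 of vehicle, at -0.29 to -0.23. In all, 7 genes were called in both comparisons, 36.8% of the 19 called for SA against OA and 53.8% of the 13 called for LPS. Of all 19938 genes 1721 were called in both, 8.63%, where the 7 are 13.5% of the 52. The 1721 are 51.8% of all genes called for SA against OA and 38.6% of all genes called for LPS. Of the 7, Gfpt1, Uap1 and Alg9 rose and Pigs and Pigt fell in both comparisons. Rpn1 and Stt3b rose with SA against OA and fell with LPS. With SA the Pigt mean was 7.64 at 5 h and 7.70 at 20 h. Its call was lost without any 1 of 5 arrays and under 2 other alternatives for SA against OA. For LPS it was lost without any 1 of 6 arrays and under 3 other alternatives. The Pigs call for LPS was lost without any 1 of 3 arrays and under 2 other alternatives. The times differ, and the difference between the comparisons was not tested.

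**Figure D4:**
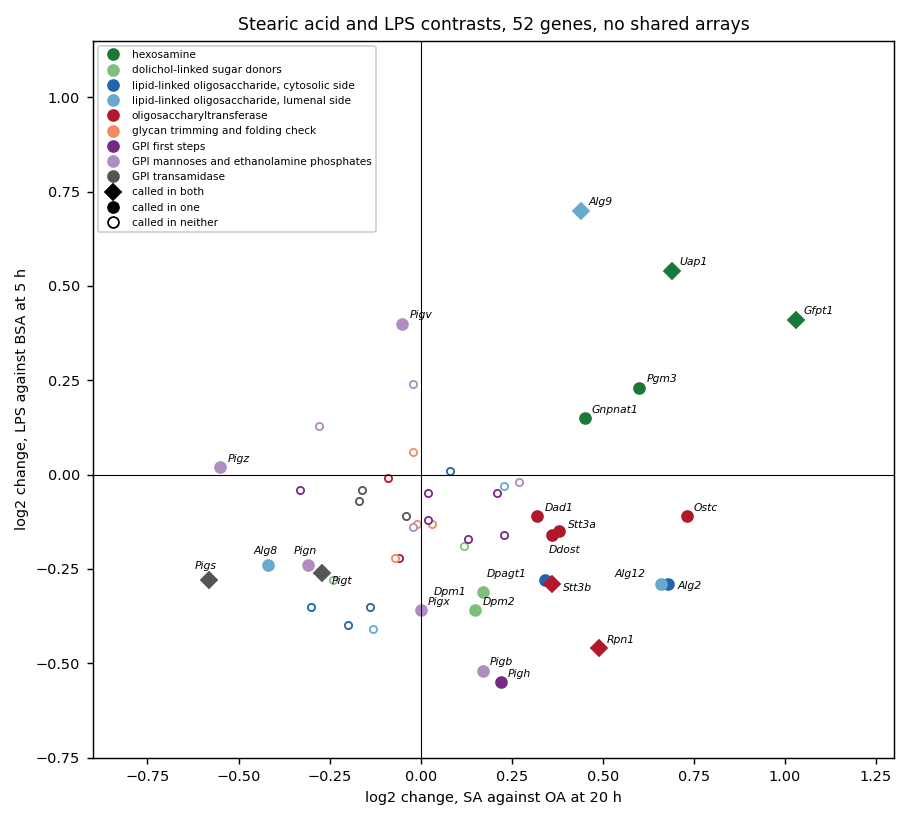
Log2 change with LPS against vehicle at 5 h (vertical) and with SA against OA at 20 h (horizontal) for the 52 genes, coloured by role. Diamonds mark the 7 genes called in both, of which Rpn1 and Stt3b lie at the lower right, with a rise with SA and a fall with LPS.

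Other genes of the pathways, from lists that hold none of the 52, were examined beside them at 20 h. Of 28 further N-glycosylation genes 12 rose and 4 fell with SA against OA, with a median of 0.11. The largest changes were in enzymes that trim or branch the glycan, with Man1a, a mannosidase, at -0.85 ± 0.14, Mgat4a, a branching enzyme, at -0.82 ± 0.10 and its relative Mgat4b at 0.65 ± 0.09 (SE). Krtcap2 and Magt1, oligosaccharyltransferase subunits singled out after their values were seen, rose by 0.64 and 0.50. Of the other such subunits in the list, Tmem258 rose by 0.40 and Ost4 was not called. Of 11 genes of the calnexin cycle and glycan-binding lectins 7 rose and none fell, with a median of 0.31. Edem2, a mannosidase of ER-associated degradation, rose by 1.07 ± 0.08, the cargo receptor Lman1 by 0.58 ± 0.09 and the chaperone Calr by 0.46 ± 0.07 (SE). Of 6 further GPI genes Pgap2, which remodels the lipid of the anchor, fell at -0.35 and none rose. Background shares of rise and fall are those given above, 7.72% and 8.95%.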

How the data were processed

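Per the labels' protocols, RNA of 23 macrophage samples was amplified, labelled with biotin and hybridised to single-channel arrays. The authors deposited log2 expression values for each probe set, which were produced by RMA according to the submitters' processing notes. These also name limma, with its role and the versions not given in the sources used here. Since RMA equalises the distributions of arrays, a shift common to most genes would not be seen. Of 35556 probe sets, 21789 had a single gene symbol and were kept, 1621 had several and 12146 had none in the probe table.

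Group means of all 6 groups were estimated jointly for 19938 genes (limma 3.58.1 under R 4.3.3, moderated by eBayes without a trend). Tests were two-sided, with Benjamini-Hochberg adjustment over all genes per comparison, and a gene was called at an adjusted p under 0.05. The fit was tested on simulated data with independent normal noise on each array. That setting has no correlated or outlying arrays and cannot address them. The genes, lists and comparisons were chosen with earlier results of these data known. Full statistics were given to called genes in order of size, up to 12 for SA against OA and for the interaction and 6 elsewhere, and to 10 anchor genes. Of other lists, up to 3 called genes each were named, beside the further oligosaccharyltransferase subunits, Alg10b, Prkcsh, Man1a2 and Man2a1. Alg10b, Prkcsh, Man1a2 and Man2a1 were named after their values were seen. Alternatives were median centring, quantile normalisation, array weights, omission of the dimmest 25% of genes, means over probe sets, fits of the compared groups only, the replicate number as a block, omission of single arrays, and robust moderation with a variance trend. Promoter windows and symbols came from RefSeq (GRCm38.p6). Plots were made in matplotlib 3.10.9 (Python 3.11.15).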

Additional observations from a re-analysis of the deposited data

Results flagged for a closer look

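For 11 genes the difference between SA and OA was not the same at 20 h as at 5 h by the interaction test. The difference at 20 h minus that at 5 h, on the log2 scale, was 0.88 for Gfpt1, 0.59 for Uap1, 0.53 for Dpagt1, 0.74 for Alg2, 0.73 for Alg12, 0.53 for Stt3a, 0.42 for Stt3b, 0.60 for Rpn1, 0.40 for Ddost, 0.88 for Ostc and -0.39 for Pigs.

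In 12 of 260 groups of 4 arrays, over the 52 genes, an array lay apart from the other arrays of its group by Dixon's criterion. Chance flags about 5% of groups. With 20 h SA these were replicate 1 for Pigb, at 6.20, replicate 4 for Pigq, at 6.94, and replicate 4 for Dpm3, at 8.55. With 20 h OA they were replicate 1 for Alg2, at 6.01, replicate 2 for Alg9, at 5.73, replicate 2 for Dpagt1, at 8.29, replicate 3 for Dpm2, at 7.26, and replicate 4 for Pigb, at 6.08. With 5 h SA they were replicate 1 for Rpn2, at 8.95, and replicate 2 for Alg1, at 5.62. With 5 h OA they were replicate 2 for Alg13, at 4.75, and replicate 4 for Tusc3, at 7.30. Without replicate 2 of 20 h OA the change of Alg9 with SA was 0.31 and no longer called, and that of Dpagt1 was 0.38 and still called.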

How the results depend on the processing

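For SA against OA at 20 h, 13 of the 19 calls held under each alternative tried, for the interaction 7 of 11, for LPS 6 of 13 and for 20 h against 5 h of SA 9 of 14. None of the called changes of the 52 genes turned its sign under these alternatives. The count for LPS against vehicle, 13, became 8 with centred arrays, 20 with quantile normalisation and 21 with array weights. For 20 h against 5 h, the count for SA, 14, became 9 with the compared groups alone, and that for OA, 1, became 2 with the variance trend and 0 with the compared groups alone. The cause was not tested. Leaving out single arrays gave counts of 14 to 19 for SA against OA at 20 h, 0 to 1 at 5 h (1 without replicate 2 of 5 h SA), 7 to 10 for the interaction (7 without replicate 2 of 5 h OA), 8 to 17 for LPS (8 without replicate 2 of vehicle), 10 to 13 for SA over time and 0 to 1 for OA over time. It gave 0 to 0 for either acid against vehicle at 5 h. Without replicate 2 of 20 h SA, the count was 12 for SA over time. Replicate numbers were not taken to pair the samples: of 55 same-numbered pairs 7 had a correlation of deviations over 0.1, and the range was -0.124 to 0.201. Between 20 h SA and 20 h OA, 3 of the 4 same-numbered pairs exceeded 0.1, the other had 0.025, and 7 of the 8 arrays correlated best with the array of their own number, which is a hint from the data and not from the design. With the replicate number as a block the counts were 19 for SA against OA at 20 h, 0 at 5 h, 11 for the interaction, 0 for SA and 0 for OA against vehicle, 15 for LPS, 12 for SA over time and 1 for OA over time. Signal over background limits Alg6, Piga and Uggt2.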

Other observations

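Proteins that carry a GPI anchor were examined at the RNA level beside the genes that build it. The list held 26 genes, of which Tnfrsf10b, not called in either comparison below, encodes a transmembrane receptor and was left out after the data had been seen. Of the other 25 genes 6 fell and 2 rose with SA against OA at 20 h, with a median log2 change of -0.07, where 8.95% and 7.72% of all genes fell and rose. The folate receptor Folr2 stood at 7.33 ± 0.07 with SA and 8.92 ± 0.09 with OA (SD, n = 4 each), a change of -1.60 ± 0.08 (SE). The complement regulator Cd59a also fell, at 3.81 ± 0.38 with SA, which is below the highest array median of 4.12 and not shown to lie above background, and 4.89 ± 0.27 with OA (SD, n = 4 each). In every group 11 of the 25 genes had means below that median, among them 1 of the called genes, Cd55, so no size is given for it. With LPS against vehicle 8 of the 25 rose and none fell, with a median of 0.19. Of all genes 9.22% rose and 13.2% fell. Ly6e, which belongs to a family of similar genes, changed by 1.44 ± 0.16 (SE). Of the 8, 2 lay below the same median in every group, Ly6i of that family and the vanin Vnn3.

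Of 11 further hexosamine and sugar nucleotide genes 2 rose and none fell with SA against OA at 20 h. Of all genes 7.72% rose and 8.95% fell in that comparison. With LPS against vehicle 5 of the 11 fell and none rose, where 13.2% and 9.22% of all genes fell and rose. Cmas, which activates sialic acid, and Nans, which makes it, each rose by 0.36 with SA against OA at 20 h, at SE of 0.08 and 0.10. At 5 h Cmas was lower with SA, at 7.70 ± 0.09 with SA and 8.04 ± 0.10 with OA (SD, n = 4 each), a change of -0.34 ± 0.08 (SE, limma adjusted p = 0.00705). Nans was not called at 5 h, at 6.38 ± 0.15 with SA and 6.69 ± 0.13 with OA (SD, n = 4 each). The change of the SA-OA difference between the times was 0.70 ± 0.11 for Cmas and 0.67 ± 0.14 for Nans (SE). With LPS Cmas changed by -1.0 ± 0.08 and Ogt, the enzyme that puts GlcNAc on nuclear and cytosolic proteins, by -0.70 ± 0.08 (SE).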
